A study of Homo sapiens with 27 samples.

Results

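The comparison is between 2 untreated cancer cell lines, A431 and MDA-MB-231, and its members are the 6 libraries that the labels give as untreated, 3 of each line, of the 27 libraries in the series. A431 is an established human line from an epidermoid carcinoma of the skin, and MDA-MB-231 is an established human line from a breast adenocarcinoma. All 6 cultures were grown in the same medium, received no agent and were collected at 48 h. Elsewhere in the series both lines were treated with compound kushen injection (CKI, a herbal extract). A431 alone also received doxorubicin, and MDA-MB-231 alone 5-Fu, each with or without CKI. A431 alone also has a vehicle control group of 3 libraries, which is used below in place of untreated A431 as an alternative. Each tumour type was represented by 1 line, so the tumour type, the donor and the history of the line cannot be told apart. The submitters call the 3 libraries of a group biological replicates, and the p-values below measure the spread between these libraries.

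Libraries were made from total RNA, sequenced in paired ends and described as unstranded by the labels. Values are in CPM, a gene's counts divided by its library's total and scaled to a common size, as mean ± SD over the 3 libraries of a line, log2 fold changes are A431 minus MDA-MB-231 with their standard error, and genes are compared with each other only in CPM per kilobase of transcript. Library totals ranged from 18218173 to 22809339 counts, at which 3 counts corresponded to between 0.132 and 0.169 CPM. MDA-MB-231 replicate 1 stood apart from its replicates: its log2 CPM correlated with theirs at 0.984 and 0.982 against 0.996 between replicates 2 and 3, and the difference followed the GC content of the transcripts across genes (Spearman rho -0.65 and -0.64). Other pairs of replicates followed GC content less strongly, with rho 0.35 between A431 replicates 1 and 2, 0.10 between 1 and 3, and -0.17 between 2 and 3. Between MDA-MB-231 replicates 2 and 3 rho was -0.14. The total counts, the counts of the gene lists and the values of the named genes were therefore also taken without MDA-MB-231 replicate 1, which does not remove the weaker trends.

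Keratinocytes, the cells of stratified skin epithelium, are held together by desmosomes and cadherin junctions, carry a cytoskeleton of paired type I and type II keratins, and build a cornified envelope as they mature under the control of the transcription factor p63. Carcinoma cells that lose epithelial character swap keratin and E-cadherin for vimentin and a fibrous matrix, a programme driven by the ZEB, SNAI and TWIST repressors and opposed by the miR-200 and miR-205 families. MDA-MB-231 is widely used as a mesenchymal-like, hormone receptor negative breast line, and A431 as a line rich in the epidermal growth factor (EGF) receptor.

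In edgeR's quasi-likelihood test, 14181 genes were tested, and a gene was called at a Benjamini-Hochberg adjusted p under 0.05 with an absolute log2 fold change over 1. A total of 2798 genes were called higher in A431 (19.7% of the genes tested) and 3088 higher in MDA-MB-231 (21.8%). These shares are the background for the counts of every list below. The median log2 fold change of all genes was -0.02 and the median absolute value was 0.80. With the adjusted p alone, 72.9% of the genes passed, so the limit on the fold change set most of the calls. Without MDA-MB-231 replicate 1, 5571 of the 5886 called genes kept their call and direction (94.6%), and with offsets for GC content and transcript length 5380 did (91.4%). The 3 libraries of a line did not overlap those of the other for all but 18 of the called genes, which the call itself nearly requires. Over all 15 A431 and all 12 MDA-MB-231 libraries of the series, whatever their treatment, 1960 of the genes higher in A431 and 1952 of those higher in MDA-MB-231 were separate. Those libraries include the ones that set the calls, and the share of separate genes among all genes tested is not given here.

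The labels fit the marker genes of each line in part. All 9 markers of stratified squamous epithelium that were examined (KRT5, KRT14, KRT6A, TP63, DSG3, DSC3, PKP1, TRIM29 and IVL) were called higher in A431. Of the 7 luminal breast markers, KRT19 was called higher in MDA-MB-231, FOXA1 and ESR1 higher in A431, KRT8, KRT18 and GATA3 were not called, and PGR, the progesterone receptor, was not tested, with a mean of 0 CPM in A431 and 0.0292 CPM in MDA-MB-231. Of the 6 mesenchymal markers, VIM, ZEB1, FN1, SPARC and AXL were called higher in MDA-MB-231, while CDH2 (N-cadherin) reached only 0.454 CPM there and was not tested. MDA-MB-231 therefore carried most of the mesenchymal markers, and of the luminal set the keratins and GATA3 but not the hormone receptors.

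Of 18 listed keratins of stratified epithelium, 15 passed the filter on low counts, 14 were called higher in A431 and none higher in MDA-MB-231, with a median log2 fold change of 8.60 (8.13 with the genes at 0 counts in 1 line set at their bound, which is the fold against 3 counts per library). A gene expressed in 1 line only passed that filter through that line, here and in the lists that follow. KRT5, the type II keratin of basal keratinocytes, had 3164, 3158 and 3445 CPM in the A431 libraries and 2, 2 and 1 counts in those of MDA-MB-231, a ratio of 42028 with a 95% counting interval from 18009 to 129438. Its type I partner KRT14 had 638, 609.9 and 673 CPM in A431 and 0.245, 0.0439 and 0.0467 CPM in MDA-MB-231. The A431 values of both genes were close together and far above any MDA-MB-231 value. The log2 fold change of KRT14 was 12.45, and 13.61 without MDA-MB-231 replicate 1.

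KRT6A, a keratin of activated keratinocytes, had 1309 ± 87.8 CPM in A431 against 1, 1 and 0 counts in MDA-MB-231. KRT6B had 400.1 ± 28.8 CPM in A431 and 0 counts in all 3 MDA-MB-231 libraries, and was at least 2868-fold higher. KRT15, a basal keratin, was at 1459 ± 64.7 against 5.21 ± 0.398 CPM (log2 fold change 8.13 ± 0.13), and KRT80 at 412 ± 31.0 against 88.2 ± 3.40 CPM (2.22 ± 0.10). KRT10, the keratin of suprabasal epidermis, was not called, with 103 ± 6.27 and 92.0 ± 4.57 CPM (adjusted p = 0.14). KRT6A, KRT6B and KRT6C, and likewise KRT14, KRT16 and KRT17, are near-identical copies, so the split of reads between them is uncertain.

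Of 4 tested keratins of simple epithelia, 2 were called higher in MDA-MB-231 and none higher in A431 (median -0.80). KRT8 and KRT18, the pair of glandular and embryonic epithelia, were not called, with KRT8 at 1414 ± 88.5 CPM in A431 and 1232 ± 71.3 CPM in MDA-MB-231 (log2 fold change 0.20 ± 0.09) and KRT18 at 422 ± 21.3 and 296 ± 8.72 CPM (0.51 ± 0.08). KRT19, a keratin of ductal epithelium, had 3.23, 2.31 and 3.89 CPM in A431 and 572, 836 and 859 CPM in MDA-MB-231. Its libraries were far apart between the lines (-7.91 ± 0.27), and KRT7, its usual type II partner, was also called higher in MDA-MB-231 (93.6 ± 3.61 against 323 ± 33.0 CPM, -1.79 ± 0.11). Per kilobase, the order of levels in A431 was KRT5 (1455), KRT15 (852), KRT8 (793) and KRT6A (567), and in MDA-MB-231 it was KRT8 (691), KRT19 (544), KRT18 (209.8) and KRT7 (199).

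**Figure D1:**
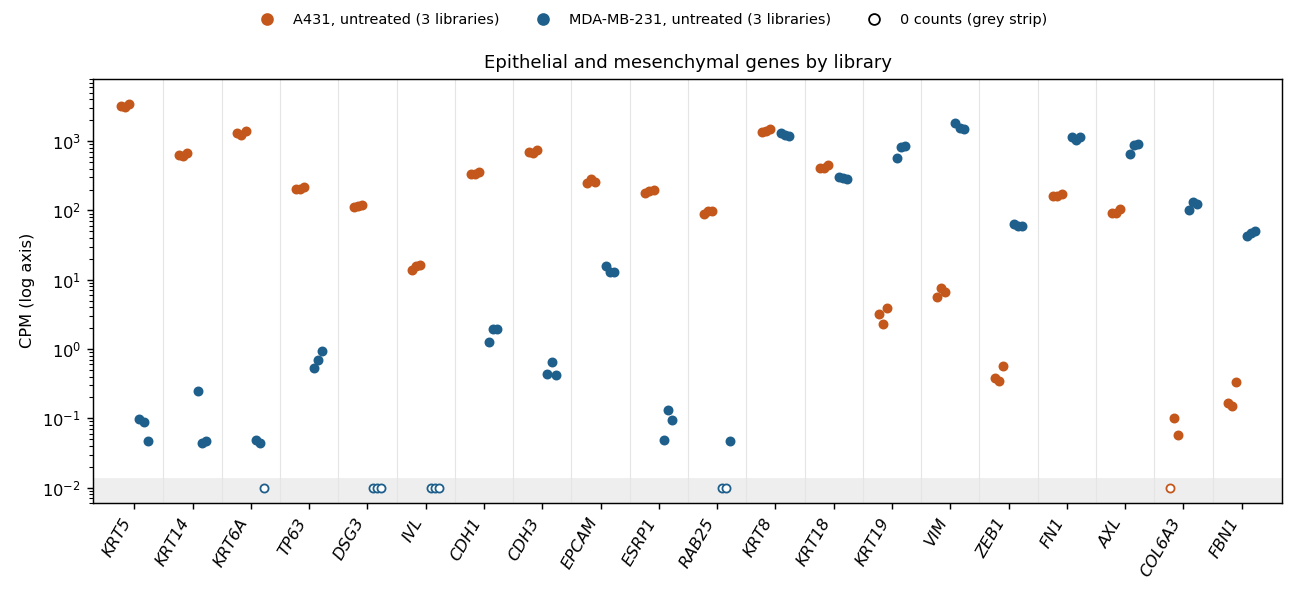
Level of 20 epithelial and mesenchymal genes in each untreated library, in CPM on a log axis, with 1 point per library and open points in the grey strip for 0 counts. The points of a line lie close together, and KRT8 and KRT18, which were not called, lie at similar but not equal levels in both lines. The other genes shown are separated between the lines, from KRT5 at 3256 CPM in A431 to VIM at 1639 CPM in MDA-MB-231.

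Of 27 tested squamous transcription factor genes, 22 were called higher in A431 and 1 higher in MDA-MB-231 (median log2 fold change 5.75, or 4.76 with genes at 0 counts at their bound). TP63, which encodes p63, had 201, 203 and 217 CPM in A431 and 0.538, 0.702 and 0.935 CPM in MDA-MB-231, a log2 fold change of 8.14 ± 0.17 (adjusted p = 3.2e-08). No library of either line approached the other. GRHL2 (87.7 ± 0.393 against 0.220 ± 0.220 CPM), which maintains epithelial junction genes, and ELF3 (273 ± 6.73 against 3.02 ± 0.0761 CPM), an epithelial ETS factor, were also called. GRHL2 had a log2 fold change of 8.62, and of 9.53 without MDA-MB-231 replicate 1. BNC1, a zinc finger factor of basal keratinocytes, was at 0 counts in MDA-MB-231 and at least 414-fold higher in A431, where it had 57.7 ± 2.09 CPM.

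Epithelial factors that were not called were KLF4 (70.2 ± 5.37 against 50.8 ± 6.49 CPM), EHF (82.1 ± 2.46 against 69.8 ± 9.86 CPM), PITX1 and PRDM1. SOX2, which marks many squamous tumours, had 1.89 ± 0.0771 CPM in A431 and 0.826 ± 0.252 CPM in MDA-MB-231 and was called higher in A431 (1.20 ± 0.26). Its call was lost without MDA-MB-231 replicate 2 (0.97) and with vehicle control A431 (0.0084).

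Of 48 listed cornified envelope and late epidermal genes, 33 passed the filter, 30 were called higher in A431 and 2 higher in MDA-MB-231 (median log2 fold change 7.99, or 6.02 with genes at 0 counts at their bound). CALML5, a calmodulin-like protein of differentiating keratinocytes, had 590.2, 584 and 639 CPM in A431 and 0 counts in every MDA-MB-231 library, and was at least 4333-fold higher. The same held for S100A9, a calcium-binding alarmin (298 ± 10.5 CPM, at least 2136-fold), and for IVL, the envelope precursor involucrin (15.4 ± 1.27 CPM, at least 111-fold). LY6D, a surface protein of stratified epithelium, had 765 ± 26.0 CPM in A431 against 0, 2 and 2 counts.

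PPL, which encodes the envelope scaffold periplakin, had 282 ± 9.81 CPM in A431 and 9.06 ± 2.69 CPM in MDA-MB-231 (4.96 ± 0.22). Several members of the list were at or near 0 in A431 as well. LORICRIN, CRNN and CASP14 were at 0 counts in all 3 A431 libraries, KRT1 and KRT2 were at no more than 0.0188 CPM, and FLG, which encodes filaggrin, was at 0.323 ± 0.0637 CPM. FLG was 1 of the 2 members called higher in MDA-MB-231 (6.28 ± 1.28 CPM, -4.26 ± 0.28), next to TGM5, a transglutaminase (0.0188 ± 0.0326 CPM in A431 against 0.887 ± 0.164 CPM). Reads of FLG and of the neighbouring transcript CCDST, which had 4.22 CPM in MDA-MB-231, cannot be assigned to a strand.

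Desmosomes, the adhesive plaques that anchor keratin filaments, were represented by 11 tested genes, of which 8 were called higher in A431 and none higher in MDA-MB-231 (median 2.27). The cadherins DSC3 and DSG3 had 149, 157 and 164 CPM and 112, 116 and 121 CPM in A431 and 0 counts in MDA-MB-231, and were at least 1122-fold and 834-fold higher. PKP1, a plaque protein of stratified epithelia, had 263 ± 13.6 CPM against 1, 0 and 1 counts. The plaque protein shared by desmosomes and adherens junctions, JUP, was at 1363 ± 107 against 83.5 ± 31.4 CPM (4.03 ± 0.30).

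DSP, which encodes desmoplakin, the linker to keratin, was not called, with 216, 217 and 225 CPM in A431 and 192, 235 and 250.1 CPM in MDA-MB-231. DSG2, the widely expressed desmosomal cadherin, was at 367 ± 17.7 and 156 ± 6.38 CPM (1.23 ± 0.09). MDA-MB-231 therefore carried both DSP and DSG2 transcripts, and none of DSC3 or DSG3.

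Of 26 adherens and tight junction genes, 19 were called higher in A431 and 2 higher in MDA-MB-231 (median 2.74). CDH1, which encodes E-cadherin, had 332, 336 and 357 CPM in A431 and 1.27, 1.93 and 1.92 CPM in MDA-MB-231 (7.64 ± 0.17, adjusted p = 3.6e-08). CDH3, which encodes P-cadherin of basal epithelium, had 708 ± 40.0 against 0.506 ± 0.132 CPM. EPCAM, an epithelial adhesion molecule, was at 262 ± 16.1 against 13.9 ± 1.49 CPM, and the tight junction protein gene CLDN1 at 196 ± 2.54 against 3.84 ± 0.452 CPM.

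CLDN7, PARD3, PARD6B and CLDN12 were not called. The members called higher in MDA-MB-231 were CTNNB1 (219 ± 7.93 against 482 ± 40.1 CPM) and CTNNA1 (314 ± 4.26 against 691 ± 9.82 CPM), the catenins that join cadherins of any type to actin. These 2 calls were lost with offsets for GC content and length and with the vehicle control libraries of A431 in place of the untreated ones.

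Of 18 genes of epithelial splicing and polarity, 16 were called higher in A431 and none higher in MDA-MB-231 (median 5.41, or 4.87 with genes at 0 counts at their bound). ESRP1, which sets the epithelial splicing of many transcripts, had 179.6, 188 and 196 CPM in A431 and 0.0489, 0.132 and 0.0935 CPM in MDA-MB-231. RAB25, an apical recycling GTPase, had 94.7 ± 6.34 CPM against 0, 0 and 1 counts, and ST14, the membrane protease matriptase, 515 ± 48.5 against 2.15 ± 0.651 CPM. FXYD3, a regulator of the sodium pump in epithelia, was at 473 ± 16.4 CPM in A431 and 0 counts in MDA-MB-231 (at least 3389-fold). SPINT2 and SCRIB were not called.

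The host transcripts of 2 microRNA loci that restrain ZEB1 and ZEB2 were seen in A431 only. MIR205HG had 3752, 4308 and 2914 counts in A431 (195 ± 27.2 CPM) and 0 in each MDA-MB-231 library, which is at least 1399.9-fold higher, and MIR200CHG had 34, 33 and 22 counts (1.59 ± 0.316 CPM) and 0, which is at least 11.4-fold higher. The libraries measured the host transcripts and not the mature microRNAs, whose RefSeq sequences are shown with the seed, bases 2 to 8, in capitals because the seed sets which transcripts they pair with.
hsa-miR-205-5p: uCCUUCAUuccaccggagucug
hsa-miR-200c-3p: uAAUACUGccggguaaugaugga
hsa-miR-141-3p: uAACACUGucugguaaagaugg
The seeds of miR-200c-3p and miR-141-3p, which lie in the same host transcript, differ from each other, and neither is that of miR-205-5p.

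The repressors ZEB1, ZEB2, SNAI1 and SNAI2 bind an E-box whose letters are CAGGTG, or CACCTG on the other strand, so promoters were read for these letters on both strands. In the RefSeq promoter table (GRCh38.p14, 250 bases before to 50 after a start site), 20.6% of 27305 promoters and 18.9% of the 11357 promoters of tested genes held at least 1 match. Among the adherens and tight junction genes 15 had an entry and 5 held a match (33.3%), and among the mesenchymal structural genes described next 27 had an entry and 4 did (14.8%). CRB3, an apical polarity gene that was at 16.0 ± 0.258 CPM in A431 and 0.407 ± 0.138 CPM in MDA-MB-231 (5.29 ± 0.20), held 5 matches, while 0.623% of all promoters held 3 or more. It held the most matches of the 15 junction genes with an entry, and none of the others held more than 1, so CRB3 is the extreme of its list and not typical of it. CDH1 had no entry.
CRB3 promoter, chr19:6464021-6464320 on GRCh38.p14, plus strand, E-box letters in capitals: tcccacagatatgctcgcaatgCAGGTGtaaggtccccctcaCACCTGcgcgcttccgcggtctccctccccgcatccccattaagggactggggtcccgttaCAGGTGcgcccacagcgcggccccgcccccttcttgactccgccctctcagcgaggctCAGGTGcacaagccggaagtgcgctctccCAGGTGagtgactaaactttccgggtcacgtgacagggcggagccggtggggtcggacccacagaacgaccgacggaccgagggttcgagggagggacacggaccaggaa
The matches begin 228, 208, 147, 89 and 60 bases before the start site. These letters describe the sequence and not the binding of any factor, which was not measured.

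The transcription factors of epithelial-mesenchymal transition were divided between the lines. Of 15 tested genes, 7 were called higher in A431 and 5 higher in MDA-MB-231 (median 0.91). ZEB1 had 0.383, 0.351 and 0.564 CPM in A431 and 64.3, 59.9 and 60.3 CPM in MDA-MB-231 (-7.14 ± 0.16, adjusted p = 3.6e-08), and ZEB2 had 0.301 ± 0.168 against 12.8 ± 0.430 CPM (-5.37 ± 0.27). ETS1 (59.7 ± 1.79 against 242 ± 13.5 CPM) and SNAI1 (3.64 ± 0.217 against 8.23 ± 1.18 CPM) were also called higher in MDA-MB-231.

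SNAI2, the SNAI factor found in basal epithelium as well as in mesenchyme, was not called (35.9 ± 3.30 and 37.9 ± 2.26 CPM, adjusted p = 0.50). TWIST1 and TWIST2, which promote the same transition, were detected in A431 and not in MDA-MB-231. TWIST1 had 46, 42 and 42 counts and TWIST2 had 91, 96 and 104 counts in the A431 libraries, and both were at 0 counts in every MDA-MB-231 library, so that they were at least 16.7-fold and 37.4-fold higher in A431. Their levels were low, at 2.33 ± 0.210 and 5.22 ± 0.568 CPM.

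Of 31 mesenchymal structural genes, 20 were called higher in MDA-MB-231 and 2 higher in A431 (median -1.77). VIM, which encodes the filament protein vimentin, had 5.70, 7.52 and 6.60 CPM in A431 and 1840.0, 1562 and 1516 CPM in MDA-MB-231 (-7.95 ± 0.17). FN1, fibronectin, was expressed in both lines and higher in MDA-MB-231 (165 ± 6.40 against 1121 ± 58.9 CPM, -2.76 ± 0.09). AXL, a receptor tyrosine kinase of mesenchymal carcinoma cells, had 96.1 ± 7.02 against 811 ± 138 CPM, and ANXA6, a membrane-binding annexin, 2.03 ± 0.646 against 365 ± 12.2 CPM.

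The 2 members called higher in A431 were TPM2, a tropomyosin (220.3 ± 10.7 against 35.9 ± 10.8 CPM), and TGFBI, a matrix protein induced by transforming growth factor beta (991 ± 41.8 against 297 ± 30.1 CPM). CAV1, caveolin, was not called (671 ± 35.5 and 618 ± 129.6 CPM). POSTN, THY1, VCAN and BGN did not pass the filter in either line. Of 10 fibroblast markers 4 passed the filter. COL1A2 (6.94 ± 1.13 CPM) and PDGFRB (5.27 CPM) were called higher in MDA-MB-231, and 2 were not called, among them COL1A1 (22.8 ± 3.56 and 13.9 ± 5.47 CPM). COL3A1, DCN, PDGFRA, FAP, THY1 and COL14A1 did not pass the filter.

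Of 18 tested collagen genes, 11 were called higher in MDA-MB-231 and 2 higher in A431 (median -2.39). The 3 chains of collagen VI, a beaded-filament collagen, were all higher in MDA-MB-231. COL6A1 was at 13.4 ± 0.131 against 181 ± 46.9 CPM, COL6A2 at 0.833 ± 0.459 against 80.1 ± 25.0 CPM, and COL6A3 at 0, 2 and 1 counts against 119 ± 15.4 CPM. The transmembrane collagen COL13A1 (0.839 ± 0.306 against 346 ± 21.7 CPM) and COL8A1 (0.230 ± 0.0683 against 192 ± 5.57 CPM) were separated as widely.

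COL7A1, the anchoring fibril of the skin basement membrane, was 1 of the 2 collagens higher in A431 (106 ± 20.9 against 46.6 ± 5.40 CPM, 1.18 ± 0.16), a call lost with offsets for GC content and length (0.74). MDA-MB-231 replicate 1 had lower values than its replicates for several of these genes, for example 180.3 CPM against 427 and 456 CPM for COL18A1 and 184 CPM against 341 and 354 CPM for COL5A1. The A431 libraries lay below all of these values, with at most 47.1 CPM for COL18A1 and 34.0 CPM for COL5A1. The part of GC content in that spread was not tested.

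**Figure D2:**
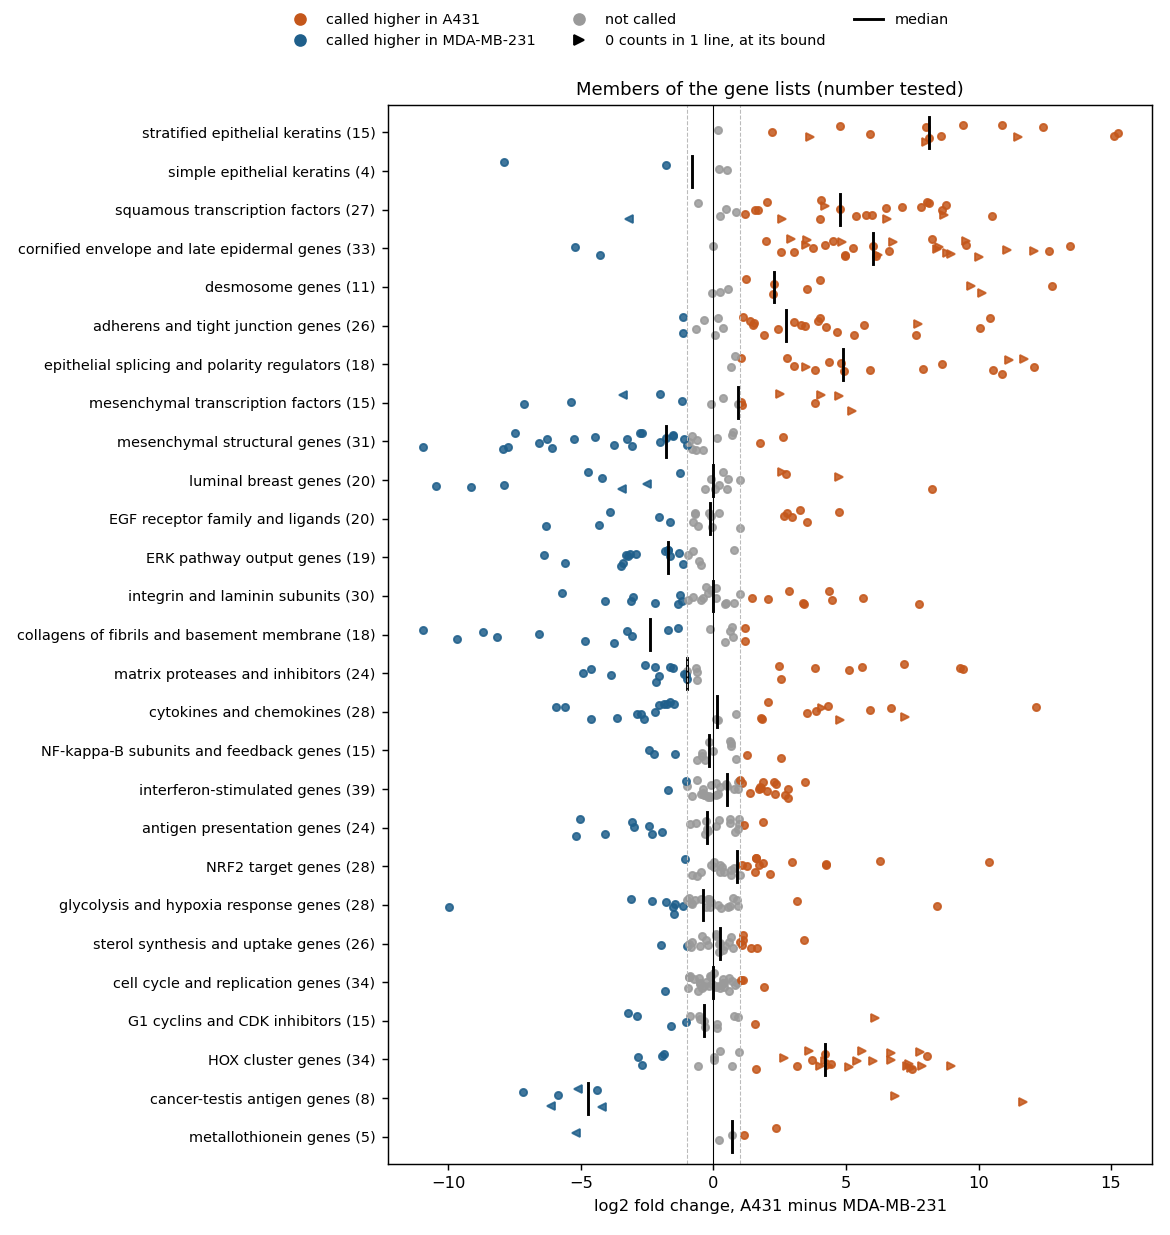
Log2 fold change (A431 minus MDA-MB-231) of every tested member of 27 gene lists, with the number tested in parentheses, points coloured by call, triangles for genes at 0 counts in 1 line drawn at their bound, and black bars for medians. Keratin, squamous, cornified, polarity and HOX lists lie to the right, mesenchymal structural, collagen and ERK output lists to the left, and the cell cycle list lies near 0.

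Luminal breast genes were divided between the lines. Of 20 tested, 8 were called higher in MDA-MB-231 and 4 higher in A431, beside 21.8% and 19.7% of all genes (median -0.02, which took either sign under the alternatives). SPDEF, an ETS factor of secretory luminal cells, had 0.219, 0.2005 and 0.113 CPM in A431 and 62.2, 126 and 126 CPM in MDA-MB-231. MLPH, melanophilin, had 1, 2 and 1 counts against 110.4 ± 7.84 CPM, and AGR2, a secretory pathway disulphide isomerase, 0.699 ± 0.0606 against 18.5 ± 0.989 CPM.

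FOXA1, the pioneer factor of luminal cells, had 43.7 ± 1.79 CPM in A431 and 0.136 ± 0.113 CPM in MDA-MB-231 (8.23 ± 0.26, or 9.12 without MDA-MB-231 replicate 2). ESR1, which encodes estrogen receptor alpha, had 16, 17 and 14 counts in A431 and 0 in MDA-MB-231. GATA3 was not called (19.3 ± 1.92 and 18.5 ± 4.87 CPM).

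In the EGF receptor family and its ligands, 6 of 20 tested genes were called higher in A431 and 5 higher in MDA-MB-231, beside 19.7% and 21.8% of all genes (median -0.12, which changed sign with offsets for GC content and length and with vehicle control A431). EGFR itself had 1800.4, 1764 and 1849.8 CPM in A431 and 211, 239 and 243 CPM in MDA-MB-231 (2.97 ± 0.10, adjusted p = 1.4e-07), a 7.82-fold difference with no overlap. ERBB3, the kinase-impaired partner receptor, was at 44.6 ± 1.84 against 6.51 ± 1.12 CPM, and ERBB2 was not called (165 ± 6.41 and 83.1 ± 18.99 CPM, 0.99 ± 0.17), although it passed the limit with DESeq2 (1.01), limma voom (1.02) and without MDA-MB-231 replicate 2 (1.09) or 3 (1.07) or A431 replicate 2 (1.03). Per kilobase EGFR reached 182 in A431 and 23.3 in MDA-MB-231, and ERBB2 36.2 and 18.2.

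The ligands went in both directions. EREG, epiregulin, was at 94.9 ± 5.26 against 9.89 ± 1.04 CPM and BTC, betacellulin, at 13.8 ± 1.18 against 2.21 ± 0.773 CPM, both higher in A431, and HBEGF was higher in MDA-MB-231 (31.4 ± 2.25 against 96.9 ± 5.12 CPM). With vehicle control A431 in place of untreated A431 the sign of HBEGF turned (0.30) and it was not called. TGFA (45.3 ± 6.08 and 73.8 ± 6.47 CPM) and AREG (9.51 ± 1.24 and 15.3 ± 1.96 CPM) were not called.

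Of the inhibitors of the receptor, those named here were called higher in MDA-MB-231, and they are not all that the list holds. ERRFI1, which binds the kinase domain and blocks it, had 45.9, 41.6 and 42.8 CPM in A431 and 645, 642 and 668 CPM in MDA-MB-231 (-3.91 ± 0.09), and LRIG1, a transmembrane protein that speeds receptor degradation, had 0.493, 0.501 and 0.677 against 41.3, 46.5 and 45.9 CPM (-6.31 ± 0.16). The ubiquitin ligase CBL was at 16.6 ± 1.52 against 69.0 ± 8.76 CPM (-2.06 ± 0.13). EGFR and these named inhibitors differed in opposite directions between the lines, which does not describe the inhibitors of the list as a whole.

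EGFR lies on chromosome 7, and the gene is known to be amplified in A431. A look at its neighbours was added after their values were seen. From EGFR to CHCHD2, between 55086710 and 56174169 on GRCh37, 13 genes were tested, and 11 were called higher in A431 and none higher in MDA-MB-231 (median 1.93). Both counts include EGFR itself and EGFR-AS1. The called neighbours include NIPSNAP2 (349 ± 10.6 against 60.4 ± 9.66 CPM), the chaperonin subunit gene CCT6A (1751 ± 62.9 against 485 ± 68.3 CPM) and LANCL2 (104 ± 5.22 against 30.2 ± 3.89 CPM), while SUMF2 and ZNF713 were not called. EGFR-AS1, which overlaps EGFR, cannot be told from it in unstranded reads. Copy number was not measured, and its part in these differences was not tested.

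The output genes of the ERK pathway, which carries the signal of EGF receptor, RAS and RAF to the nucleus, were higher in MDA-MB-231. Of 19 genes, all of them tested, 14 were called higher in MDA-MB-231 and none higher in A431 (median -1.71). DUSP6, the phosphatase that shuts ERK off, had 77.5, 76.3 and 79.9 CPM in A431 and 868, 729.9 and 690.2 CPM in MDA-MB-231 (-3.29 ± 0.12), and DUSP4, a nuclear ERK phosphatase, had 64.6 ± 3.80 against 685 ± 133 CPM (-3.41 ± 0.16). The feedback inhibitor SPRY2 was at 2.44 ± 0.285 against 119 ± 11.8 CPM, SPRY4 at 13.5 ± 0.548 against 127 ± 26.5 CPM, and the ETS factor ETV1 at 1.26 ± 0.0892 against 105 ± 12.2 CPM.

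The phosphatases, the Sprouty genes and the ETV1 factor were separated in every library. CCND1, FOSL1, EPHA2, ETV4 and EGR1, which respond to the same pathway, were not called, and CCND1 was at 1181 ± 49.1 CPM in A431 and 691 ± 141 CPM in MDA-MB-231. MDA-MB-231 replicate 1 was the lowest of its group for EGR1 (129 CPM against 237 and 271 CPM), and lay just above the highest A431 library at 125 CPM. Without that library EGR1 was called higher in MDA-MB-231 (-1.19), and with the vehicle control libraries in place of untreated A431 it was called higher in A431 (1.89).

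**Figure D3:**
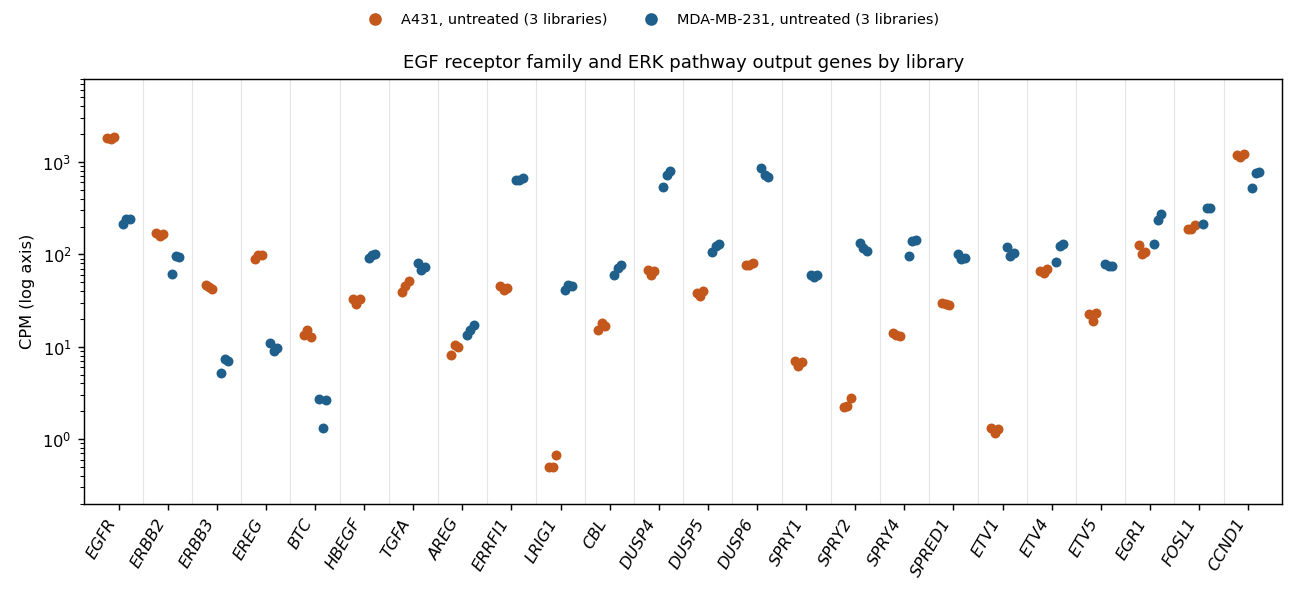
Level of 24 genes of the EGF receptor family and of ERK pathway output in each untreated library, in CPM on a log axis, with 1 point per library. EGFR lies near 1805 CPM in A431 and 231 CPM in MDA-MB-231, whereas ERRFI1, LRIG1, the DUSP, SPRY and SPRED genes and ETV1 and ETV5 lie higher in MDA-MB-231.

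Of 30 tested integrin and laminin subunits, 9 were called higher in A431 and 8 higher in MDA-MB-231, beside 19.7% and 21.8% of all genes (median close to 0, of either sign under the alternatives). The genes higher in A431 include those of the hemidesmosome, which fixes basal keratinocytes to laminin 332. LAMA3, a chain of that laminin, had 622, 643 and 688 CPM in A431 and 54.3, 60.2 and 66.3 CPM in MDA-MB-231 (3.43 ± 0.11), and COL17A1, the hemidesmosomal collagen, had 644 ± 32.0 against 12.96 ± 1.13 CPM. LAMB3, another laminin 332 chain, was not called (971 ± 70.1 and 724 ± 202 CPM), nor was the integrin subunit ITGA6 (485 ± 17.6 and 523 ± 16.6 CPM).

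ITGB4, the partner of ITGA6 in hemidesmosomes, was at 912 ± 64.9 against 218 ± 98.1 CPM, and the epithelial subunit ITGB6 at 45.4 ± 0.858 against 0.209 ± 0.221 CPM (7.77, or 8.88 without MDA-MB-231 replicate 1). Higher in MDA-MB-231 were ITGB1, the common beta subunit (518 ± 11.3 against 1229 ± 105 CPM, -1.25 ± 0.09, or -0.98 and not called with GC and length offsets), the collagen receptor subunit ITGA2 (114 ± 7.02 against 288 ± 20.7 CPM), ITGB3 (0.193 ± 0.0970 against 3.42 ± 0.693 CPM) and ITGA10 (0.271 ± 0.149 against 14.2 ± 1.37 CPM).

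Among 24 tested matrix proteases and inhibitors, 8 were called higher in A431 and 12 higher in MDA-MB-231 (median -0.998). The gelatinase MMP2 (41.1 ± 1.48 against 0.276 ± 0.0778 CPM) and the epithelial protease MMP7 (29.2 ± 1.09 against 0.598 ± 0.290 CPM) were higher in A431, as were the serpins SERPINB5 (186 ± 10.6 against 0.271 ± 0.237 CPM, 9.43, or 10.36 without MDA-MB-231 replicate 1) and SERPINB2 (81.8 ± 8.04 against 0.121 ± 0.0884 CPM). The collagenase MMP1 (0.870 ± 0.216 against 26.3 ± 1.53 CPM), the plasminogen activator PLAT (45.7 ± 1.26 against 669 ± 71.9 CPM) and the inhibitors TIMP1, TIMP2 and TIMP3 were higher in MDA-MB-231. The call of TIMP1 was lost without MDA-MB-231 replicate 1 (-0.89). MMP14, the membrane protease that activates pro-MMP2, was high in both and not called (906 ± 49.8 and 1401 ± 349 CPM).

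Of 28 tested cytokine and chemokine genes, 12 were called higher in A431 and 13 higher in MDA-MB-231 (median 0.15). Genes of the interleukin 1 family, which keratinocytes store, were higher in A431. IL1A had 165, 175 and 165 CPM in A431 and 2.20, 3.25 and 2.94 CPM in MDA-MB-231 (5.90 ± 0.15), IL1B had 149 ± 7.17 against 12.9 ± 2.58 CPM, the receptor antagonist IL1RN 173 ± 10.2 CPM against 1, 0 and 1 counts, and IL36G 21.0 ± 1.32 CPM against 0 counts (at least 150.4-fold).

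Other cytokine genes were called higher in MDA-MB-231. IL6 had 2.08, 1.45 and 1.30 CPM in A431 and 87.9, 108 and 103 CPM in MDA-MB-231 (-5.94 ± 0.18), CSF2 (granulocyte-macrophage colony stimulating factor) 4.18 ± 0.550 against 27.9 ± 1.98 CPM, CSF3 0.195 ± 0.0484 against 5.01 ± 0.996 CPM, IL11 8.91 ± 0.494 against 55.1 ± 6.69 CPM, and CXCL8 33.1 ± 3.65 against 104 ± 13.3 CPM. With vehicle control A431 in place of untreated A431, CXCL8 was called higher in A431 (1.67) and the call of CSF2 was lost (-0.51). CXCL11, a chemokine induced by interferon, went the other way (90.1 ± 4.62 against 0.873 ± 0.316 CPM).

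Of 15 NF-kappa-B subunit and feedback genes, 2 were called higher in A431 and 3 higher in MDA-MB-231, beside 19.7% and 21.8% of all genes. The other 10 were not called, among them RELA, NFKB1, NFKB2 and NFKBIA. TNFAIP3, the deubiquitinase that limits the pathway, was higher in A431 (75.3 ± 4.26 against 12.9 ± 2.73 CPM), with REL, and ICAM1 (18.7 ± 1.72 against 87.9 ± 19.2 CPM), TRAF1 and BIRC3 were higher in MDA-MB-231, the call of BIRC3 being lost with vehicle control A431 (-1.45, against -0.53). Of 39 interferon-stimulated genes, 15 were called higher in A431 and 2 higher in MDA-MB-231 (median 0.53). IFI27 had 446 ± 7.90 against 64.2 ± 2.42 CPM, OAS1 27.1 ± 1.24 against 3.88 ± 0.685 CPM and USP18 12.2 ± 1.14 against 1.11 ± 0.0750 CPM. The 2 genes higher in MDA-MB-231 were the RNA sensor RIGI (16.8 ± 0.385 against 55.0 ± 11.01 CPM) and MX2, whose call was lost without MDA-MB-231 replicate 1 (-0.92), and ISG15, IFIT1 and 20 more were not called.

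Of 24 antigen presentation genes, 2 were called higher in A431 and 8 higher in MDA-MB-231, beside 19.7% and 21.8% of all genes (median -0.25). The class I genes HLA-B (1310.5 ± 61.6 and 1501 ± 15.2 CPM), HLA-C and HLA-E were not called, and HLA-F was higher in A431. The class II genes were called higher in MDA-MB-231. HLA-DRA had 22.9, 23.5 and 24.2 CPM in A431 and 159, 113 and 109 CPM in MDA-MB-231, HLA-DRB1 7.84 ± 0.7998 against 66.7 ± 4.601 CPM, HLA-DPA1 1.496 ± 0.273 against 54.4 ± 7.09 CPM, HLA-DPB1 0.859 ± 0.432 against 28.5 ± 0.754 CPM, and CD74, the invariant chain, 29.999 ± 3.39 against 514 ± 99.8 CPM. CIITA, the master regulator of class II, was not called (12.9 ± 1.101 and 20.4 ± 5.59 CPM), and CD274, which encodes PD-L1, was at 7.37 ± 0.948 against 28.6 ± 0.667 CPM (-1.95 ± 0.12), a call lost with vehicle control A431 (-0.93). Alleles of HLA genes that differ from the reference can lose reads, so their levels are less certain.

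Of 28 target genes of NRF2, the regulator of antioxidant defence, 13 were called higher in A431 and 1 higher in MDA-MB-231 (median 0.88). GPX2, a glutathione peroxidase, had 113 ± 3.95 CPM in A431 and 0.0781 ± 0.0738 CPM in MDA-MB-231 (10.40, or 11.10 without MDA-MB-231 replicate 1), and GCLC, the catalytic subunit of glutathione synthesis, 195 ± 3.53 against 25.0 ± 3.17 CPM (2.97 ± 0.12). NQO1, a quinone reductase, was at 348, 359 and 363 CPM in A431 and 150.0, 104 and 100.5 CPM in MDA-MB-231. TXNRD1 was the member higher in MDA-MB-231 (196 ± 15.5 against 413 ± 38.5 CPM), a call lost without MDA-MB-231 replicate 1 (-0.99) and with GC and length offsets (-0.85), and HMOX1, SRXN1, SLC7A11 and TXN were not called. AKR1C1 and AKR1C2 are near-identical, so their separate values are uncertain.

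Of 28 glycolysis and hypoxia response genes, 18 were not called, including GAPDH (2267 ± 141 and 2384 ± 77.4 CPM), PKM, ENO1 and LDHA. Of the other genes, 8 were called higher in MDA-MB-231 and 2 higher in A431, beside 21.8% and 19.7% of all genes (median -0.37). The lactate importer SLC16A1 had 185, 189.7 and 195 CPM in A431 and 0.196, 0.702 and 0.701 CPM in MDA-MB-231 (8.44 ± 0.28), whereas the lactate exporter SLC16A3 had 209 ± 12.2 against 1031 ± 273 CPM (-2.30 ± 0.20). The neuronal-type glucose transporter SLC2A3 was at 1, 2 and 0 counts in A431 and 60.2 ± 1.78 CPM in MDA-MB-231, and SLC2A1 at 246 ± 22.9 against 682 ± 102 CPM. The enzyme genes HK2 and ENO2 were also called higher in MDA-MB-231, and ALDOC was called higher in A431.

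Of 26 sterol synthesis and uptake genes, 7 were called higher in A431 and 2 higher in MDA-MB-231, beside 19.7% and 21.8% of all genes (median 0.24). SQLE, squalene epoxidase, was the largest (231 ± 10.2 against 21.6 ± 1.71 CPM, 3.42 ± 0.10).

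Proliferation genes had the smallest share of calls of the 27 lists. Of 34 cell cycle and replication genes, 30 were not called (median -0.01), and MKI67 was at 218 ± 8.27 and 268 ± 61.7 CPM (-0.30 ± 0.17, adjusted p = 0.14). MCM2, a subunit of the replicative helicase, MCM5 and PCNA were higher in A431, with MCM2 at 447 ± 42.2 against 119 ± 13.9 CPM, and TYMS, thymidylate synthase, was higher in MDA-MB-231 (32.9 ± 0.829 against 116 ± 20.3 CPM). With vehicle control A431 the calls of MCM5 (1.13, falling to 0.72) and PCNA (1.06, falling to 0.81) were lost, and that of PCNA also without MDA-MB-231 replicate 3 (0.99).

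Of 15 tested G1 cyclins and CDK inhibitors, 2 were called higher in A431 and 4 higher in MDA-MB-231, beside 19.7% and 21.8% of all genes (median -0.33). CDKN2A, which encodes the inhibitors p16 and p14ARF, had 149, 195 and 193 counts in A431 (9.61 ± 1.37 CPM) and 0 in each MDA-MB-231 library (at least 68.9-fold). CDKN2B was at 0 counts in all 6 libraries. CDKN1C (2.21 ± 0.406 against 20.5 ± 7.77 CPM) and CDKN2D (12.1 ± 0.659 against 89.9 ± 12.3 CPM), other CDK inhibitors, were higher in MDA-MB-231.

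The neighbours of CDKN2A on chromosome 9 were looked at after these values were seen. Between 20658308 and 21995300 on GRCh37, 6 genes were tested, CDKN2A itself among them, and all were called higher in A431. Of these, 5 were at 0 counts in every MDA-MB-231 library, so they could pass the filter on low counts only through A431 and their direction was fixed in advance. MTAP, the salvage enzyme of methylthioadenosine, had 1078, 1349 and 1175 counts in A431 (64.3 ± 4.61 CPM, at least 461-fold), and KLHL9 (22.2 ± 1.36 CPM), HACD4 (7.16 ± 0.655 CPM) and IFNE (1.85 ± 0.447 CPM) were likewise seen in A431 only. FOCAD, at the far end, was at 17.6 ± 1.33 against 2.03 ± 0.0547 CPM (3.12 ± 0.13).

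A431 had a run of 0 counts on chromosome 13, also looked at after the values were seen. Between 36342789 and 37633850, 9 genes were tested, 5 were called higher in MDA-MB-231 and 4 of these (DCLK1, CCDC169, SPART and CCNA1) were at 0 counts in every A431 library. Those 4 could pass the filter on low counts only through MDA-MB-231, so their direction was fixed in advance. SPART, which encodes the protein spartin, had 1464, 1429 and 1337 counts in MDA-MB-231 (65.6 ± 5.20 CPM, at least 407-fold). RFXAP, ALG5, EXOSC8 and SUPT20H in the same stretch were not called. Whether these genes were present in the DNA of each line was not measured.

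HOX genes, which record the body position of a cell's origin, were broader in A431. Of 39 genes in the 4 clusters, 34 were tested, 24 were called higher in A431 and 4 higher in MDA-MB-231 (median 7.77, or 4.22 with the 17 genes at 0 counts in 1 line at their bound). Of the 11 HOXA genes, on chromosome 7 between 27132612 and 27239710 of GRCh37, 9 were at 0 counts in all 3 MDA-MB-231 libraries. HOXA9 had 70.6, 69.4 and 70.4 CPM in A431 and was at least 503-fold higher, HOXA3 had 32.5 ± 2.33 CPM and was at least 233-fold higher, and HOXA13, at the end of the cluster, was not called (1.79 ± 0.282 and 1.74 ± 0.357 CPM).

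In the HOXD cluster the direction changed along the genes. HOXD1, HOXD3 and HOXD4 were higher in MDA-MB-231, with HOXD1 at 1.09 against 4.10 CPM, and HOXD8, HOXD9, HOXD10, HOXD11 and HOXD13 were higher in A431, with HOXD9 at 37.6, 33.0 and 21.2 CPM against 0 counts and HOXD10 at 24.6 ± 2.14 CPM against 0 counts. HOXB7 was at 46.2 ± 2.83 against 2.47 ± 0.213 CPM and its neighbour HOXB9 at 5.40 ± 0.359 against 38.6 ± 8.62 CPM, the largest HOX value of MDA-MB-231. HOXC13, a regulator of hair keratins, had 14.7 ± 1.93 CPM in A431 and 0 counts in MDA-MB-231.

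**Figure D4:**
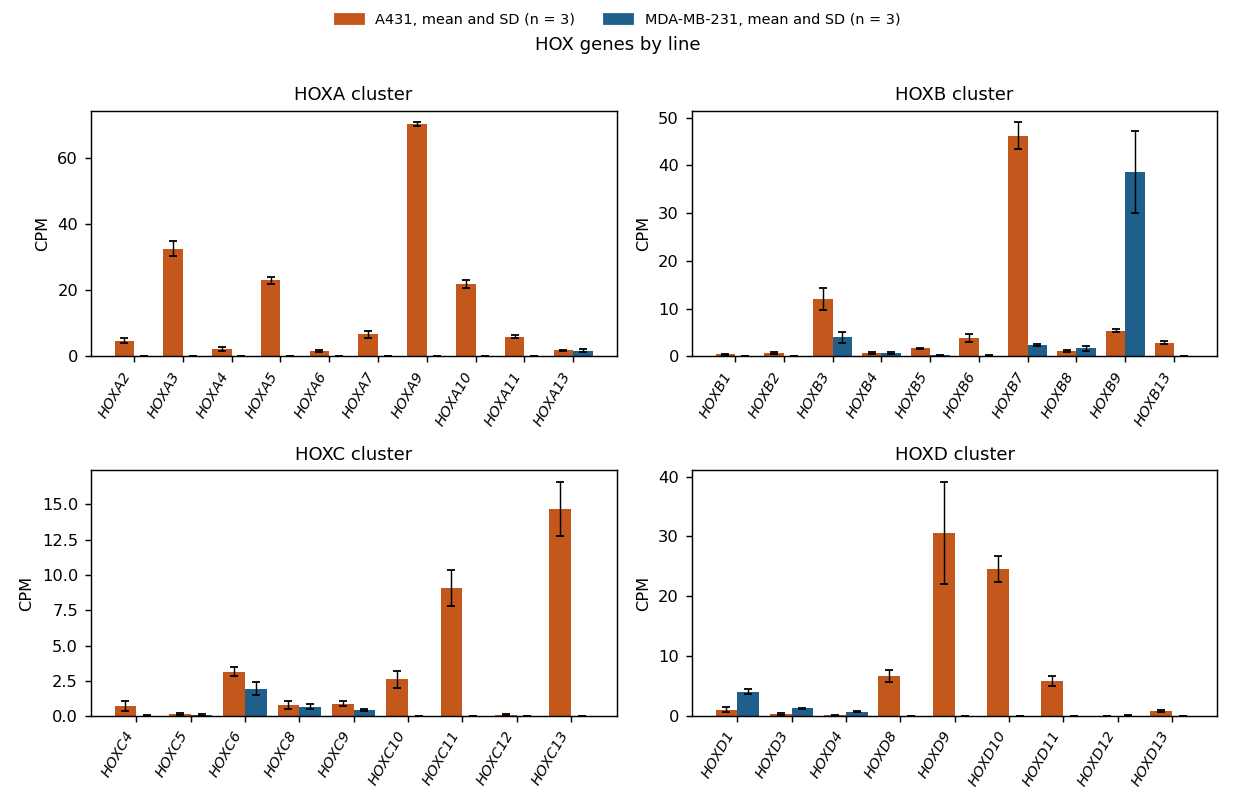
Mean level in CPM of genes of the 4 HOX clusters (1 HOXA gene is not drawn) in untreated A431 and MDA-MB-231, with bars starting at 0 and error bars for the SD over 3 libraries. In MDA-MB-231 the tallest bar is HOXB9 at 38.6 CPM, and the HOXA bars other than HOXA13 are at or near 0.

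Neighbouring genes were then summarised by a running median of the log2 fold change over 15 consecutive tested genes, in 13725 windows, of which 99% lay between -2.11 and 2.49. The medians, and the choice of windows by them, use fitted folds, whose size for genes at 0 counts depends on the prior count. The 3 non-overlapping windows furthest towards A431 were the HOXA genes (chromosome 7, from 26331482 to 27224851, median 9.59), the type I keratins with KRT14 (chromosome 17, from 38975353 to 39890896, median 8.13) and the epidermal differentiation genes with IVL and S100A9 (chromosome 1, from 151843342 to 153433127, median 8.02). The medians of the HOXA and epidermal windows are the fitted values of HOXA2 and SPRR2D, both at 0 counts in MDA-MB-231. Against the floor these genes were at least 34.2-fold and 11.5-fold higher in A431, so the fitted medians overstate what the counts can bound. Within the keratin window 10 genes were called higher in A431 and 3 higher in MDA-MB-231, namely KRT19, KRT34 and KRTAP2-3. The call of KRT34 was lost with vehicle control A431 (-2.17, against -0.41). HOTAIRM1, a non-coding RNA of the HOXA cluster, had 46.0 ± 5.79 CPM in A431 and 0 counts in MDA-MB-231.

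The 3 non-overlapping windows furthest towards MDA-MB-231 were on chromosomes 19 and 3. On chromosome 19, from 19896648 to 21739072, 12 of 15 zinc finger genes were called higher in MDA-MB-231 and none higher in A431 (median -8.75). That median is the fitted value of ZNF682, which had 2.68 CPM in MDA-MB-231 and was at least 16.6-fold higher there. ZNF253, ZNF93, ZNF682, ZNF90, ZNF737, ZNF626 and ZNF429 were at 0 counts in every A431 library, and ZNF486 had 1, 0 and 0 counts against 11.8 ± 0.869 CPM. Within the same window ZNF430 (4.02 ± 0.351 and 7.71 ± 1.37 CPM), ZNF714 and ZNF431 (8.57 ± 0.755 and 5.77 ± 0.485 CPM) were not called, so the low genes did not form an unbroken run. The other zinc finger window, from 11832080 to 12476719, held 13 of 15 genes called higher in MDA-MB-231 (median -3.48), such as ZNF439 at 0.262 ± 0.182 against 10.9 ± 2.53 CPM, with ZNF440 not called (8.76 ± 0.475 and 9.28 ± 0.818 CPM).

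A count of all numbered ZNF genes was added after these windows were seen. On chromosome 19, 75 of 202 tested ZNF genes were called higher in MDA-MB-231 and 5 higher in A431 (median -0.61). Elsewhere in the genome, 38 of 207 were called higher in MDA-MB-231 and 24 higher in A431 (median 0.13), and of the other 815 tested genes of chromosome 19, 185 were higher in MDA-MB-231 and 153 higher in A431. ZNF genes resemble each other in sequence, and reads that map to several of them may have been dropped or shared in counting.

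The remaining window lies on chromosome 3, from 58549844 to 66551687, where 9 of 15 genes were called higher in MDA-MB-231 and 1 higher in A431 (median -4.71). The tumour suppressor gene FHIT had 1, 3 and 1 counts in A431 and 6.69 ± 0.760 CPM in MDA-MB-231, the receptor phosphatase gene PTPRG had 0.708 ± 0.384 against 82.8 ± 2.31 CPM, CEP15 had 0 counts against 630, 545 and 490 counts, the scaffold gene MAGI1 had 2.96 ± 0.844 against 77.2 ± 14.4 CPM, and LRIG1, described above, closes the window. THOC7, ATXN7, PSMD6 and SLC25A26 were among the genes of this window that were not called, with THOC7 at 64.5 and 80.5 CPM, and CFAP20DC went the other way (13.3 ± 0.228 against 2.52 ± 0.787 CPM).

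**Figure D5:**
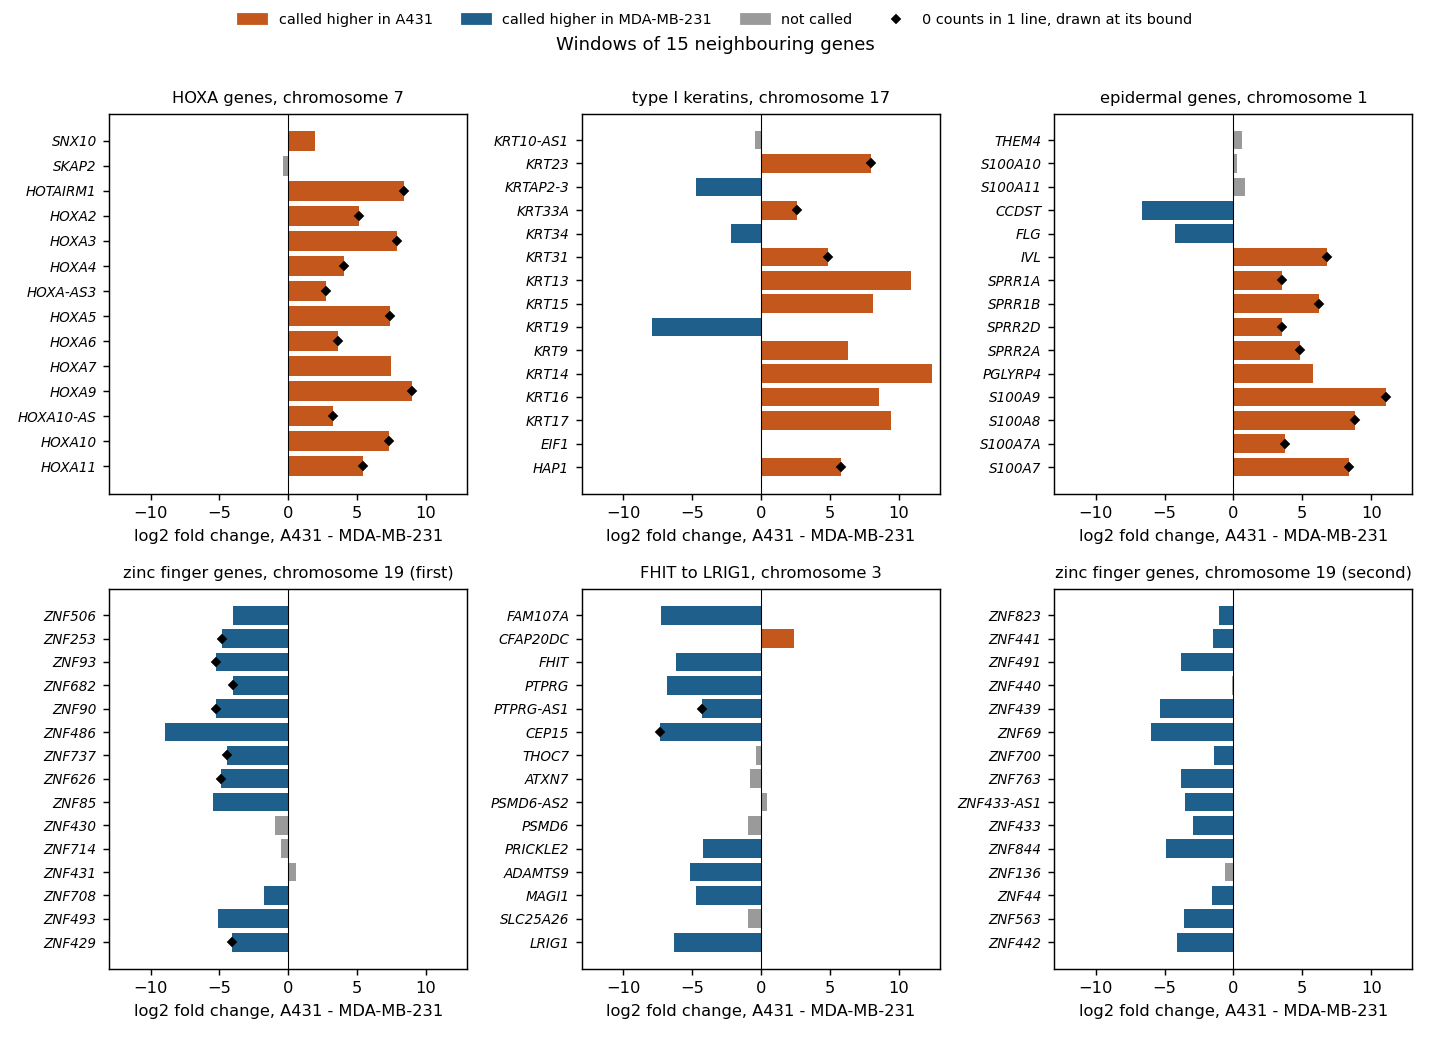
Log2 fold change (A431 minus MDA-MB-231) of the genes, in chromosome order from top to bottom, in the 3 non-overlapping windows of 15 tested genes with the highest median (upper row) and the 3 with the lowest (lower row), with bars coloured by call and diamonds on genes at 0 counts in 1 line, drawn at their bound. A gene of the HOXA window is not drawn. Nearly all bars of the HOXA window point to A431, and in the zinc finger and chromosome 3 windows genes that were not called stand between genes far to the left.

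By whole chromosome, the median log2 fold change was highest on chromosome 22 (0.78, with 136 genes called higher in A431 and 20 higher in MDA-MB-231) and chromosome 16 (0.63, with 186 and 46), and lowest on chromosome 4 (-0.62, with 60 and 200). These medians were taken with all 6 libraries only. Across genes the log2 fold change rose with GC content (Spearman rho 0.17, 0.10 without MDA-MB-231 replicate 1 and 0.02 with offsets for GC content and length). The part of GC content in the chromosome medians was not tested.

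Over all genes, the 15 largest changes in each direction were taken among genes with at least 50 CPM in the higher line. They were chosen by fitted fold, whose order depends on the prior count for genes at 0 counts, so no rank is given among them. In A431 they were CALML5, FXYD3, MAGEA4, a cancer-testis antigen (455 ± 8.10 CPM, at least 3258-fold), AOC1, the diamine oxidase (421 ± 23.2 CPM, at least 3019.8-fold), KRT6B, LAD1, an anchoring filament protein of basement membranes (314 ± 19.1 CPM, at least 2249-fold), S100A9, KRT5, KRT6A, TMPRSS4, a membrane serine protease (197 ± 3.84 CPM, at least 1410.0-fold), MIR205HG, DSC3, CSTA, the cornified envelope inhibitor cystatin A (145 ± 3.04 CPM, at least 1036-fold), PRSS21, a testis-type serine protease (122 ± 10.8 CPM, at least 875-fold), and DSG3. Apart from KRT5 and KRT6A, these genes were at 0 counts in every MDA-MB-231 library.

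In MDA-MB-231 the genes chosen in the same way include SPART, described above, and ENPP1, a nucleotide pyrophosphatase of the cell surface. ENPP1 had 0, 2 and 2 counts in A431 and 300.4, 274 and 284 CPM in MDA-MB-231, a ratio of 3994 with a 95% counting interval from 1559 to 14659. CST1, a secreted cystatin, had 0.182 ± 0.0923 against 621 ± 17.1 CPM and its paralogue CST4 0.146 ± 0.120 against 199 ± 25.5 CPM. The adhesion receptor ADGRF5 (237 ± 7.14 CPM), G0S2, an inhibitor of lipolysis (286 ± 14.2 CPM), the proteoglycan gene SDC2 (104 ± 21.1 CPM), LOXL4, a lysyl oxidase (84.7 ± 10.4 CPM), COL6A3, LIMCH1 (178 ± 8.86 CPM), CREB3L1 (104 ± 41.0 CPM), GPAT2 (66.1 ± 7.86 CPM), MLPH and the adhesion gene VCAM1 (55.0 ± 4.70 CPM) followed, each with at most 5 counts in any A431 library. CREB3L1 had 56.3 CPM in MDA-MB-231 replicate 1 and 129.7 and 125 CPM in the other libraries.

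Genes seen in 1 line only were defined by at most 3 counts in every library of a line and a mean of at least 10 CPM in the other. There were 152 of these in A431, of which 82 had 0 counts in all MDA-MB-231 libraries, and 116 in MDA-MB-231, of which 37 had 0 counts in all A431 libraries. The 10 of highest CPM in each line are named, with no adjustment for transcript length, so they are not a ranking of abundance per kilobase. In A431 they were KRT5, KRT6A, LY6D, CALML5, FXYD3, MAGEA4, AOC1, KRT6B, KLK10, a kallikrein of the epidermis (339 ± 29.2 CPM), and LAD1. In MDA-MB-231 they were ENPP1, ADGRF5, COL6A3, MLPH, SDC2, CREB3L1, the pentraxin gene PTX3 (100.4 ± 9.001 CPM), LOXL4, CMTM7 (83.7 ± 3.12 CPM) and LGALS12 (78.3 ± 7.28 CPM).

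Cancer-testis antigen genes, silent in most adult tissue, were expressed one by one. Of 34 listed, 29 were in the table and 8 passed the filter. MAGEA4 and PRAME (16.0 ± 0.860 CPM) were higher in A431 with 0 counts in MDA-MB-231, and CT83 (11.3 ± 0.724 CPM), PAGE5, MAGEA6, MAGEC1, MAGEC2 and SSX1 were higher in MDA-MB-231. Of 11 metallothionein genes, MT2A was the most abundant and was not called (1251 ± 32.1 and 1078 ± 104 CPM), and MT1A was at 0 counts in A431 and 5.80 ± 1.69 CPM in MDA-MB-231. Members of the MAGEA and MT1 families are near-identical, so reads may be split between them.

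Markers of cells that should be absent from pure lines were examined last. Of 15 hepatocyte markers, 3 passed the filter, and ALB had 0 CPM in A431 and 0.110 CPM in MDA-MB-231. Of 12 blood cell markers 2 did, and MS4A1, HBB, SPI1 and CD48 were at 0 counts in all 6 libraries. Of 9 endothelial markers in the table, 6 passed and were split, CDH5 (20.0 ± 1.48 CPM against 1, 0 and 0 counts, 9.85, or 11.65 without MDA-MB-231 replicate 1), ERG and VWF higher in A431, and ESAM (0.184 ± 0.120 against 178 ± 21.6 CPM), KDR (0.0183 ± 0.0316 against 8.77 ± 1.75 CPM) and TIE1 higher in MDA-MB-231. Neither line therefore carried the endothelial set as a whole.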

How the data were processed

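Per the labels, total RNA of cultures in DMEM with serum was sequenced in unstranded paired ends, and the submitters' processing notes name Trim Galore 0.3.7, STAR 2.5.3a, edgeR and hg19. The counting tool and the gene annotation were not given in the sources used here. The authors deposited raw counts per gene (24566 rows, Entrez identifiers), which were not normalized. CPM, names (24422 rows through RefSeq) and lengths (GRCh37) were computed here. The 6 untreated libraries were compared with edgeR 4.0.16 (TMM factors, filterByExpr, quasi-likelihood test, Benjamini-Hochberg adjustment over 14181 genes) in R 4.3.3, and the fit was tested on simulated data. Other tools were DESeq2 1.42.0 and limma 3.58.1. Genes at 0 counts were compared with a floor of 3 counts per library, and intervals and floors cover counting error only. The members and gene lists were chosen with earlier results of these data known. Members named in a list are those with the largest changes or highest levels and those the list is known by, and over all genes the 15 of largest change in each direction with at least 50 CPM and the 10 of highest CPM among those seen in 1 line. Some genes of the lists are counted but not reported by name here.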

Additional observations from a re-analysis of the deposited data

How the results depend on the processing

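The counts of genes called higher in A431 and in MDA-MB-231 (2798 and 3088) moved by over 1.5 times under 2 of the alternatives. With the adjusted p alone they were 4971 and 5367, by construction. With at least 10 counts required in every library they were 1716 and 2034, since that filter removes genes near 0 in 1 line. Leaving out each A431 library in turn gave 2777 to 2900 and 3149 to 3170, and each MDA-MB-231 library 2944 to 2985 and 3121 to 3163. With the replicate block the counts were 2809 and 3053. Deviations of same-numbered libraries correlated at -0.20, -0.12 and -0.04. Deviations from the mean of a line are not independent, and MDA-MB-231 replicate 1 stood apart, so these values cannot show whether same-numbered libraries were paired.

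Of 294 named genes, 223 kept their direction and their side of the threshold under every alternative that gave them a value. Genes near 0 in 1 line have none when at least 10 counts are required in every library. Genes with few counts in 1 line moved in fitted fold when a single library was left out, with no change of call. With vehicle control A431 in place of untreated A431, the sign turned for CXCL8 (1.67), EGR1 (1.89) and HBEGF (0.30), the calls of ITGA2 (-0.71), ITGB1 (-0.81), COL7A1 (0.65) and TXNRD1 (-0.51) were lost, and KLF4 (1.44), NFKBIA (2.20), CCND1 (1.05) and CIITA (-1.47) were called. With the CKI libraries of both lines, where the treatment is part of the contrast, it turned for CXCL8 (0.83), EGR1 (2.47), HBEGF (0.38), ITGA2 (0.78), ITGB1 (0.20), KRT34 (3.06), MCM5 (-0.63), MT2A (-1.499), MX2 (0.53), PCNA (-0.63), PRDM1 (1.28), SNAI1 (1.46), SNAI2 (1.14) and TIMP3 (0.23). In that contrast 3414 genes in all were called higher in A431 and 3257 higher in MDA-MB-231. Of the 34 cell cycle and replication genes, 27 were among those called higher in MDA-MB-231. The cause was not tested. Differences under 3 counts per library (0.132 to 0.169 CPM) were not detectable at this depth.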
